A study of Mus musculus with 6 samples.

Results

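Trem2 and 7 genes that mark lipid-laden or tissue-repairing macrophages were followed in peritoneal macrophages of wild-type mice and of mice heterozygous for Zeb1. They were taken by symbol from the deposited gene table. All 8 (Trem2, Tyrobp, Hcst, Spp1, Gpnmb, Lgals3, Fabp5 and Plin2) were found among its 48709 genes, and all 8 were among the 12940 genes with enough counts to be tested. The study sorted F4/80+ CD11b+ cells from peritoneal lavage of untreated C57BL/6 mice aged 6 to 8 weeks and sequenced their mRNA. There were 3 wild-type libraries and 3 libraries from heterozygous Zeb1 (+/-) mice, each made from a pool of 2 mice. The labels did not give the sex of the mice, and did not say how the Zeb1 allele was made. Values of 3 libraries are given in the order of replicates 1, 2 and 3 in each genotype. The spread given here is between pools, so single mice may vary more.

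TREM2 is a surface receptor of macrophages and microglia that binds lipids, lipoproteins and cell debris. It has no signalling tail of its own and works through the adaptor DAP12, encoded by Tyrobp, and partly through DAP10, encoded by Hcst. In fat, atherosclerotic plaque and the diseased brain, macrophages that take up much lipid are known to carry TREM2 together with osteopontin (Spp1), GPNMB, galectin-3 (Lgals3), the fatty acid carrier FABP5 and the lipid droplet coat protein perilipin-2 (Plin2). ZEB1 is a transcription factor that binds E-box sequences.

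Among the 8 genes, Spp1 rose in Zeb1 (+/-) macrophages and the other 7 did not pass the test. Spp1 went from a mean of 0.999 to 6.16 CPM (counts scaled to library size), a low level in both genotypes. Fabp5 was the only other gene of the 8 whose libraries did not overlap between genotypes, at 111 and 163 CPM, and it missed the threshold. Of all 12940 tested genes, 2578 did not overlap in either direction. Trem2 was at 49.7 and 41.9 CPM, with 1 Zeb1 (+/-) library inside the wild-type range. Its adaptor Tyrobp was the most abundant of the 8 in every library.

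Depth was 17859872 to 42165006 counts per library. Macrophage identity was present in all 6 libraries: all 12 listed markers of large peritoneal macrophages, the resident majority of the cavity, were above 1 CPM on average. Zeb1 itself was at 5.44, 7.56 and 7.22 CPM in the wild-type pools and at 3.85, 3.45 and 3.62 CPM in the Zeb1 (+/-) pools (edgeR adjusted p = 0.0522). Libraries also differed in structural RNA and in cell type markers, and the B cell and small macrophage sums given here separated by genotype. Wild-type replicates 1 and 2 had small structural RNAs at 4.14 and 8.69 CPM, which were between 42.2 and 45.5 CPM in the other 4 libraries. The 14 listed B cell markers summed to 144 to 289 CPM in the wild-type pools and 87.7 to 118 CPM in the Zeb1 (+/-) pools, with none of the 14 at 0. Markers of small peritoneal macrophages, 10 of 10 above 1 CPM, summed to 2171 to 2306 CPM in the wild-type pools and 1340 to 1507 CPM in the Zeb1 (+/-) pools. Of these 10 markers 6 passed the edgeR test as lower, where 56 of all 12940 tested genes did. Of the 12 large macrophage markers 0 passed, with 4 higher and 1 lower without overlap. Among all 12940 tested genes, 1242 were higher and 1336 lower without overlap. The part of these differences in the results below was not tested, other than by fits with a term for structural RNA or for the B cell markers. Both terms are confounded with genotype. Wild-type replicate 3 was the only wild-type library in the high structural-RNA class, which held all Zeb1 (+/-) libraries. The B cell mean was 2.37 to 3.30 log2 CPM in wild-type and 1.62 to 1.95 in Zeb1 (+/-) libraries. These fits therefore cannot tell the terms apart from genotype. In bulk RNA, fewer cells of a type and less RNA per cell cannot be told apart.

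Spp1 encodes osteopontin, a secreted phosphoprotein that binds integrins and CD44. The gene lies on chromosome 5 of GRCm38 (104435118 to 104441050, plus strand, ENSMUSG00000029304.14). The 250 bases before its RefSeq start are printed because Spp1 was the gene of the 8 that passed, and those before Trem2 because its receptor names the pathway. Both read 5′ to 3′ on the plus strand, from RefSeq on GRCm38.p6, and capitals mark the E-box CAGGTG, a sequence that ZEB1 is known to bind.
Spp1 (chr5:104434861-104435110): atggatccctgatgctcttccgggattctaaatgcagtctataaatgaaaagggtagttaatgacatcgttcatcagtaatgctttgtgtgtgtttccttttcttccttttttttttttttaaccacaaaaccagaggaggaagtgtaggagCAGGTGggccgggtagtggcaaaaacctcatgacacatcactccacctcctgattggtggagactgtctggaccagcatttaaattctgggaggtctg
Trem2 (chr17:48346151-48346400): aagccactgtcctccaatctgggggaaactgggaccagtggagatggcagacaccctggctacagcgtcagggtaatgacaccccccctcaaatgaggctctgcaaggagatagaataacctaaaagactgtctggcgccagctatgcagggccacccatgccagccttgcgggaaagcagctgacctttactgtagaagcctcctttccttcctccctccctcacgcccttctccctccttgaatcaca
The Spp1 window held 1 CAGGTG on either strand, starting 98 bases before the start, and the Trem2 window held 0. RefSeq windows were found for 6 of the 8 genes and not for Tyrobp and Fabp5. Lgals3 held 2 CAGGTG matches, while Gpnmb, Plin2, Hcst and a further Spp1 start held 0. Of 32851 RefSeq mouse windows of the same length, 17.2% held CAGGTG. The related E-box CAGGTA was in 0 of these windows of the 6 genes and in 10.05% of all windows, both strands searched. For CACGTG and CATGTG, E-boxes bound by factors of the MITF and TFEB family, the matches were 0 windows and 1 window (Hcst), against 6.02% and 12.3% of all. A match describes the letters only and no binding was measured here.

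The wild-type pools had 39, 23 and 19 Spp1 counts, and the Zeb1 (+/-) pools had 98, 119 and 335. In CPM this was 1.17, 0.817 and 1.01 against 5.47, 2.81 and 10.2. All 3 Zeb1 (+/-) values lay above all 3 wild-type values, and they differed among themselves by 3.63 times, against 1.43 times in wild-type. The wild-type mean was 0.999 ± 0.178 CPM and the Zeb1 (+/-) mean 6.16 ± 3.74 CPM (SD, n = 3 each). Changes are stated as Zeb1 (+/-) relative to wild-type. For Spp1 the log2 fold change was 2.61 ± 0.46 (SE; 95% confidence interval 1.58 to 3.64), or 6.10-fold. By the edgeR quasi-likelihood test with Benjamini-Hochberg adjustment over all genes, its adjusted p was 0.0482. It ranked 71 by p among the 76 genes of the table that passed, and 0.587% of all tested genes passed in either direction and 0.155% of all tested genes passed as higher.

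The Spp1 call sat close to the threshold. With 1 library left out, the log2 fold change ran from 2.00 (without Zeb1 (+/-) replicate 3, the highest library) to 2.98 (without Zeb1 (+/-) replicate 2, the lowest). It passed in both of these fits and missed in the other 4, with adjusted p from 0.0771 to 0.230. When structural-RNA class entered the model the log2 fold change was 2.60, an estimate that rests on 1 wild-type library. With the mean of the B cell markers as a covariate it was 1.75 (adjusted p = 0.423), and that mean itself separated by genotype. Osteopontin is also made by epithelial, stromal and some lymphoid cells. The 12 listed markers of mesothelium and fibroblasts were each under 1 CPM on average, with Pdgfra at 0 in all libraries, and summed to 0.541 to 1.70 CPM in the wild-type pools and 0.335 to 0.685 CPM in the Zeb1 (+/-) pools. The 16 markers of T and NK cells were likewise each under 1 CPM and summed to 1.70 to 3.70 and 2.04 to 2.27 CPM. In wild-type replicate 2 the mesothelium and fibroblast sum of 1.70 CPM exceeded Spp1 at 0.817 CPM. B cell markers summed to 144 to 289 and 87.7 to 118 CPM, and dendritic cell markers to 85.8 to 104 and 69.2 to 107 CPM. Mast cell and eosinophil markers summed to 2.70 to 5.74 and 4.02 to 6.05 CPM. Of the 6 tested, 2 were higher and 0 lower without overlap, and 0 passed the test. Over all tested genes, 9.6% were higher without overlap. Which cells gave the Spp1 counts was not tested. Of the 50-base stretches of Spp1 transcripts, 11.6% also occur in Gm42793, a transcript model of the same locus and strand that had 1 count over all 6 libraries.

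**Figure D1:**
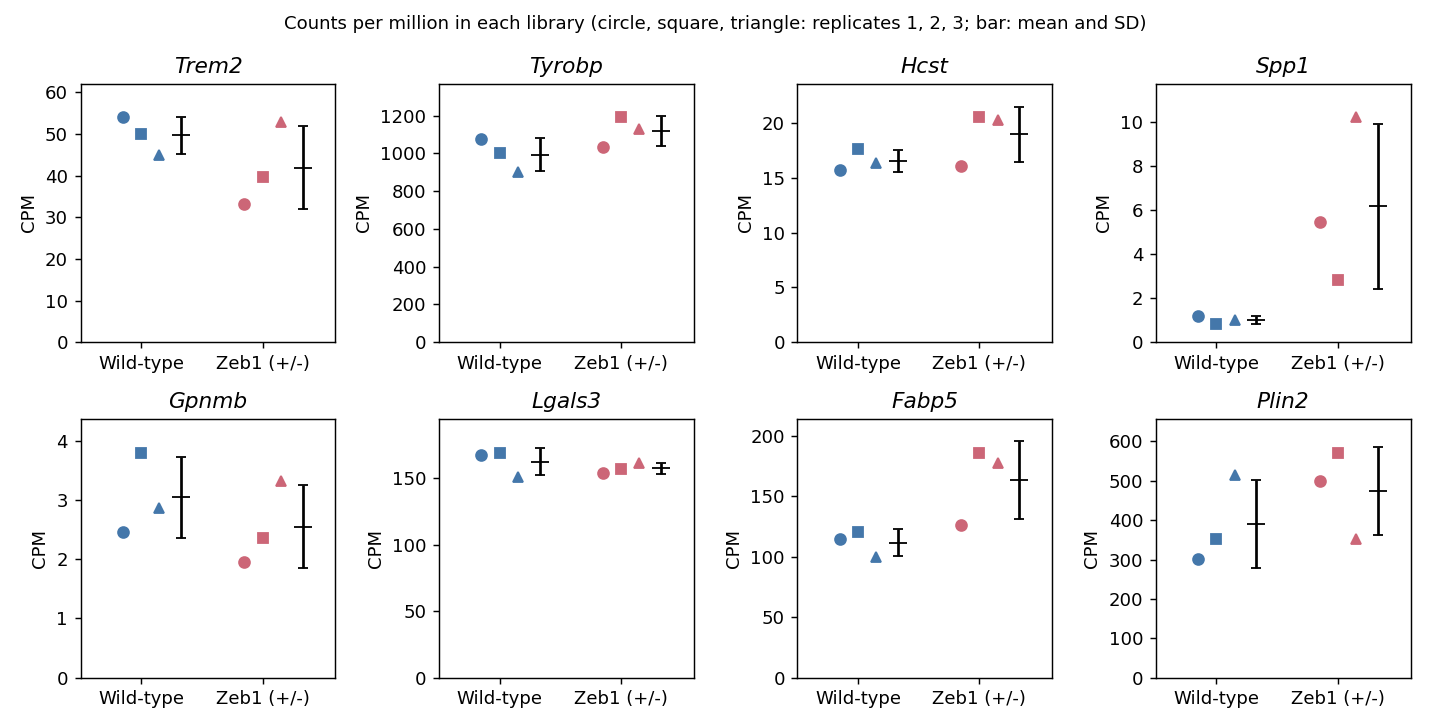
CPM (linear axes from 0) of the 8 genes in each library, with wild-type in blue and Zeb1 (+/-) in red, circles, squares and triangles for replicates 1, 2 and 3, and bars for mean and SD. Spp1 and Fabp5 are the 2 genes whose groups do not overlap, and Plin2 is high in wild-type replicate 3 (515 CPM) and low in Zeb1 (+/-) replicate 3 (352 CPM).

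Osteopontin acts through integrins and CD44. Of its 10 listed receptor genes 8 were tested, 1 rose, 0 fell and 7 did not pass, where 0.155% of all tested genes rose. The median log2 fold change of the 8 was 0.01 (all tested genes, −0.00038), with 4 above 0 and 4 below. An unadjusted p under 0.05 was found in 3 of the 8 and in 14.6% of all tested genes. Itgb1, the integrin beta-1 chain, was at 1316, 1292 and 1284 CPM in the wild-type pools and 1701, 1802 and 1668 CPM in the Zeb1 (+/-) pools. It rose by 0.41 ± 0.06 on the log2 scale (SE; edgeR adjusted p = 0.0328), with groups that did not overlap. Its call was lost without any of the 3 wild-type libraries and without Zeb1 (+/-) replicates 1 and 2 (adjusted p up to 0.168), with the structural-RNA split (0.205) and with the B cell mean (0.221), while its log2 fold change stayed between 0.38 and 0.44. Cd44, another osteopontin receptor, was at 310 and 304 CPM (log2 fold change −0.03). The neighbouring family genes Ibsp, Dmp1, Dspp and Mepe, which serve bone and teeth, had 0 counts in all libraries. Over the 6 libraries, the genes whose log2 CPM was most like that of Spp1 were Ibtk, Fahd1 and Ppp1r3b (Pearson r = 0.984, 0.984 and 0.98). These are descriptions: 109 of 11590 genes compared had r above 0.9, and none of the 3 named passed the genotype test.

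Trem2 lies on chromosome 17 (48346401 to 48354147, plus strand, ENSMUSG00000023992.14), and no 50-base stretch of its transcripts occurred in another gene. It was at 53.99, 49.95 and 45.04 CPM in the wild-type pools and at 33.3, 39.6 and 52.8 CPM in the Zeb1 (+/-) pools. Replicates 1 and 2 of Zeb1 (+/-) were below all wild-type libraries and replicate 3 was within their range. The log2 fold change was −0.24 ± 0.15 (SE; 95% confidence interval −0.58 to 0.09; adjusted p = 0.488). The interval leaves room for Trem2 at 0.671 to 1.07 times its wild-type level. Without Zeb1 (+/-) replicate 3 the estimate was −0.44 (adjusted p = 0.120), and without Zeb1 (+/-) replicate 1 it was −0.10. With the structural-RNA split it was −0.10 and with the B cell mean −0.60, neither past the threshold. The genes most like Trem2 over the 6 libraries were Def6, Papd7 and Nfxl1 (r = 0.997, 0.996 and 0.996), where 266 of 11590 genes had r above 0.9.

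Tyrobp, the adaptor with an ITAM tail that recruits SYK, was at 1078, 999.8 and 903 CPM in the wild-type pools and 1034, 1190 and 1128 CPM in the Zeb1 (+/-) pools. The groups overlapped, and the log2 fold change was 0.17 ± 0.09 (SE; 95% confidence interval −0.02 to 0.36; adjusted p = 0.396). Hcst, whose product DAP10 recruits phosphoinositide 3-kinase, was at 15.7, 17.6 and 16.4 CPM against 16.1, 20.5 and 20.3 CPM. Its log2 fold change was 0.20 ± 0.10 (SE; adjusted p = 0.402). Hcst and Tyrobp lie 126 bases apart on opposite strands of chromosome 7. Hcst is best known from NK and T cells, whose 16 markers were each under 1 CPM here, as given above. Which cells gave the Hcst counts was not tested.

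Set against its adaptor within each library, which removes the library scaling, Trem2 stood at 5.008, 4.996 and 4.989 counts per 100 Tyrobp counts in the wild-type pools. In the Zeb1 (+/-) pools it stood at 3.22, 3.33 and 4.68. The wild-type values differed by less than their own counting errors of 0.121 to 0.176, and all 3 Zeb1 (+/-) values lay below them. The means were 4.997 ± 0.00963 and 3.74 ± 0.813 (SD, n = 3 each). An exact two-sided permutation test gave p = 0.1, the smallest that 3 against 3 allows, which any full separation gives. This ratio was chosen after the values were seen, so the test adds nothing to the separation. The same ratio to Tyrobp was lower without overlap in 23.3% of all tested genes, so that this separation is common in the table. Hcst per 100 Tyrobp counts was 1.68 ± 0.194 in wild-type and 1.69 ± 0.123 in Zeb1 (+/-) libraries, with overlapping groups.

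**Figure D2:**
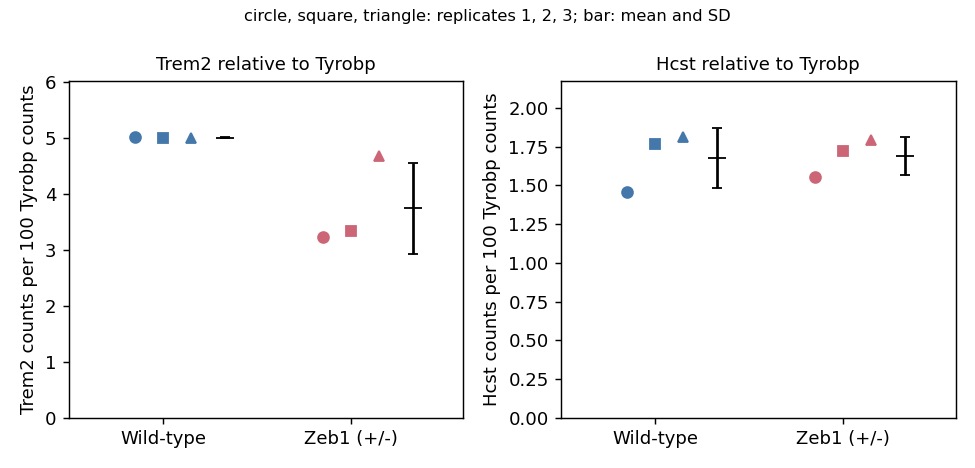
Trem2 counts (left) and Hcst counts (right) per 100 Tyrobp counts in each library, with wild-type in blue, Zeb1 (+/-) in red, circles, squares and triangles for replicates 1, 2 and 3, and bars for mean and SD. The wild-type Trem2 values coincide between 4.989 and 5.008, and the Zeb1 (+/-) values lie at 3.22, 3.33 and 4.68.

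Around the receptor, the lists held few changed genes. Of 16 receptors that use DAP12 or DAP10, or signal with them, 13 were tested and 0 passed in either direction (median log2 fold change −0.15; 2 with an unadjusted p under 0.05, and 14.6% of all tested genes had such a p). The smallest p was that of Cd300lb, an activating receptor of the CD300 family, with 198 CPM in wild-type against 169 (log2 fold change −0.23; adjusted p = 0.148). Of 30 genes for kinases, adaptors and phosphatases below DAP12, 29 were tested and 0 passed (median −0.10; 7 with an unadjusted p under 0.05). Their log2 fold changes were below 0 in 22 of 29, against 6486 of all 12940 genes, and none was larger than 0.30 in size. Pik3cd, the leukocyte phosphoinositide 3-kinase subunit, had the smallest p with 210 CPM in wild-type against 177 (log2 fold change −0.25; adjusted p = 0.151). Syk, the kinase that docks on DAP12, was at 384 and 371 CPM (log2 fold change −0.05).

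Of 11 listed ligands of TREM2 and enzymes that shed it, 9 were tested, 1 rose and 0 fell (median 0.01). Over all tested genes 0.155% rose. Lpl, lipoprotein lipase, was at 775, 616 and 710.1 CPM in the wild-type pools and 1042, 1230 and 1424 CPM in the Zeb1 (+/-) pools. It rose by 0.81 ± 0.12 on the log2 scale (SE; edgeR adjusted p = 0.0283), with groups that did not overlap. The call was lost without wild-type replicates 2 or 3 or Zeb1 (+/-) replicate 2 (adjusted p = 0.150, 0.0568 and 0.128), and under the structural-RNA and B cell terms (0.205 and 0.237). Apoe, the apolipoprotein that TREM2 binds, ran the other way with 19183 CPM in wild-type against 14055 (log2 fold change −0.45; adjusted p = 0.0505). The sheddase genes Adam10 and Adam17 had log2 fold changes of 0.02 and −0.08.

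Gpnmb, a transmembrane glycoprotein of melanosomes and lysosomes that is a known target of MITF and TFE3, was near the bottom of the range. Its counts were 82, 107 and 54 in the wild-type pools and 35, 100 and 109 in the Zeb1 (+/-) pools. In CPM these were 2.46, 3.80 and 2.87 against 1.95, 2.36 and 3.32, with overlapping groups. The log2 fold change was −0.24 ± 0.24 (SE; 95% confidence interval −0.79 to 0.31; adjusted p = 0.691). All 4 MiT/TFE factor genes were tested and 0 passed, with log2 fold changes between −0.14 and 0.12. Tfe3 had the smallest p of them, with 126 CPM in wild-type against 115 (log2 fold change −0.14, adjusted p = 0.319). An unadjusted p under 0.05 was found in 1 of the 4 and in 14.6% of all tested genes.

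Lgals3 encodes galectin-3, a lectin that binds galactosides and gathers on damaged lysosomes. It was at 167, 169 and 151 CPM in the wild-type pools and 154, 157 and 162 CPM in the Zeb1 (+/-) pools. Its log2 fold change was the smallest in size of the 8, −0.04 ± 0.07 (SE; 95% confidence interval −0.20 to 0.11; adjusted p = 0.798). Of 9 other galectin-list genes 5 were tested and 0 passed at either the adjusted or an unadjusted p under 0.05. Lgals8 had the smallest p (73.8 and 70.0 CPM, log2 fold change −0.08).

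Fabp5, a cytosolic carrier of fatty acids, was at 114, 121 and 99.3 CPM in the wild-type pools and 126, 186 and 177 CPM in the Zeb1 (+/-) pools. All 3 Zeb1 (+/-) libraries were above all 3 wild-type libraries, with replicate 1 only just so. The log2 fold change was 0.55 ± 0.14 (SE; 95% confidence interval 0.24 to 0.86), and the edgeR adjusted p of 0.129 missed the threshold. Groups without overlap and higher in Zeb1 (+/-) were found in 2 of the 8 genes and in 9.6% of all tested genes. In either direction the groups did not overlap in 2 of the 8 and in 2578 of all 12940 tested genes. Leaving out Zeb1 (+/-) replicate 1 gave 0.71, which passed (adjusted p = 0.0390). DESeq2 called Fabp5 with all libraries (adjusted p = 0.00306), where it called 2.72% of all genes against 0.587% by edgeR. With a covariate for B cell markers it was 0.25 and with the structural-RNA split 0.72, neither past the threshold. Of its 50-base stretches 5.48% occur in other genes, most of them in the processed copy Gm6166, which had 68 counts over all libraries.

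Its relative Fabp4 lies 187 kb away on chromosome 3, on the opposite strand. Fabp4 was at 184, 185 and 166 CPM in the wild-type pools and 236, 355 and 272 CPM in Zeb1 (+/-) replicates 1, 2 and 3, again without overlap. Its log2 fold change was 0.69, with an adjusted p of 0.0649, and DESeq2 called it (adjusted p = 1.45e-05). In both genes Zeb1 (+/-) replicate 2 was highest and replicate 1 lowest of the 3. Of 11 listed fatty acid and retinoid carriers 3 were tested and 0 passed (median 0.26), and the rest were absent or too low to test. An unadjusted p under 0.05 was found in 2 of the 3 and in 14.6% of all tested genes.

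Plin2 encodes perilipin-2, which coats lipid droplets and rises with lipid load in many cells. It was at 301, 353 and 515 CPM in the wild-type pools and 500.1, 571 and 352 CPM in the Zeb1 (+/-) pools. The groups crossed: wild-type replicate 3 exceeded 2 of the 3 Zeb1 (+/-) libraries, and Zeb1 (+/-) replicate 3 was level with wild-type replicate 2. For Plin2 the log2 fold change was 0.29 ± 0.21 (SE; 95% confidence interval −0.19 to 0.77; adjusted p = 0.566), an interval wide enough to hold 0.874 to 1.70 times the wild-type level. Without wild-type replicate 3 it was 0.54, and with structural-RNA class in the model it turned to −0.12. Of 21 other lipid droplet genes 17 were tested and 0 passed (median 0.06). Of the 17, 1 had an unadjusted p under 0.05, as had 14.6% of all tested genes. The droplet gene with that p was Hilpda, a droplet protein that inhibits lipolysis, with 6.47 CPM in wild-type against 8.33 (log2 fold change 0.38, adjusted p = 0.305).

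Of 8 PPAR, LXR and RXR genes, whose products drive many genes of lipid handling, 8 were tested and 0 passed (median −0.13). An unadjusted p under 0.05 was found in 2 of these 8 and in 14.6% of all tested genes. Rxrg had the smallest p, with 2.69 CPM in wild-type against 4.06 (log2 fold change 0.59; adjusted p = 0.203). The other of the 2 was Pparg, with 2.31 CPM in wild-type against 1.45 (log2 fold change −0.63; edgeR adjusted p = 0.256). Of the 8 log2 fold changes, 2 were above 0 and 6 below. Among 23 further genes reported in lipid-associated macrophages, 21 were tested and Lpl alone passed, with 11 of 21 above 0 and a median of 0.03. Of these 21, 8 had an unadjusted p under 0.05, as had 14.6% of all tested genes. Without overlap, 5 of the 21 were higher and 3 lower, as were 1242 and 1336 of all 12940 tested genes. Over all pathway lists, with each gene counted once and the 8 genes left out, 114 genes were tested. Of these, 2 rose, Lpl and Itgb1, and 0 fell, where 0.155% of all tested genes rose and 0.587% passed in either direction. DESeq2 called 5 pathway genes, 3 higher and 2 lower, and 2.72% of all genes it tested. The median of the 114 by edgeR was −0.04. For the 8 genes themselves the median was 0.19, with 5 above 0 and 3 below.

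**Figure D3:**
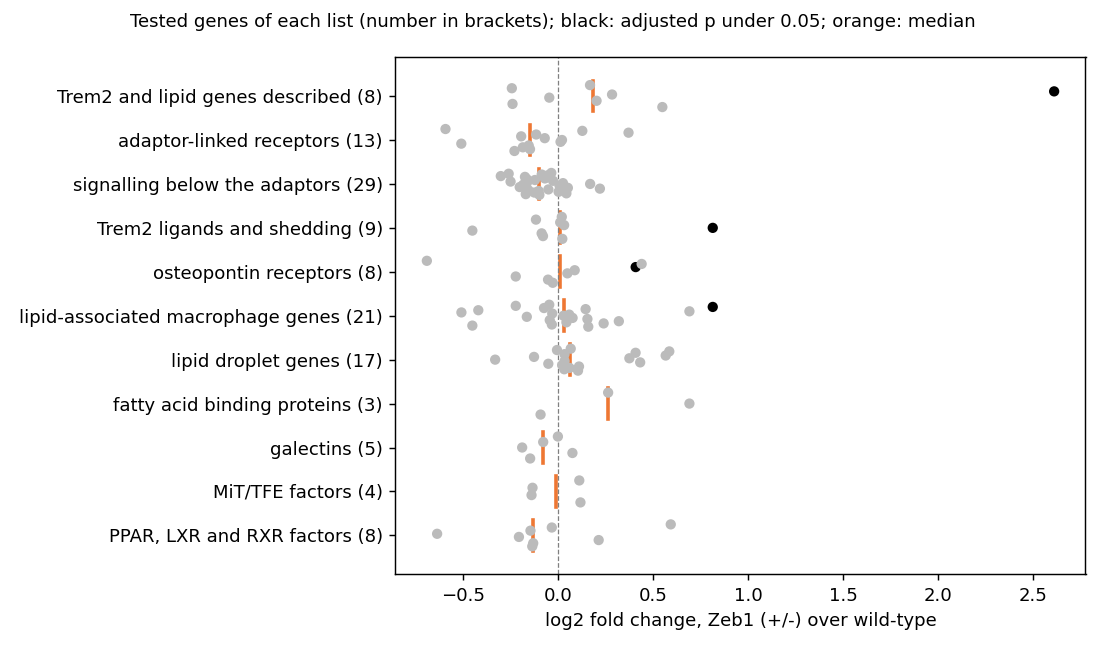
Log2 fold change of each tested gene (dots, Zeb1 (+/-) over wild-type) in the 8 genes described and in 10 pathway lists with tested genes, with black dots for adjusted p under 0.05 and orange lines for list medians. Spp1 stands at 2.61, Lpl at 0.81 (in 2 lists) and Itgb1 at 0.41, and the other dots are grey.

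**Figure D4:**
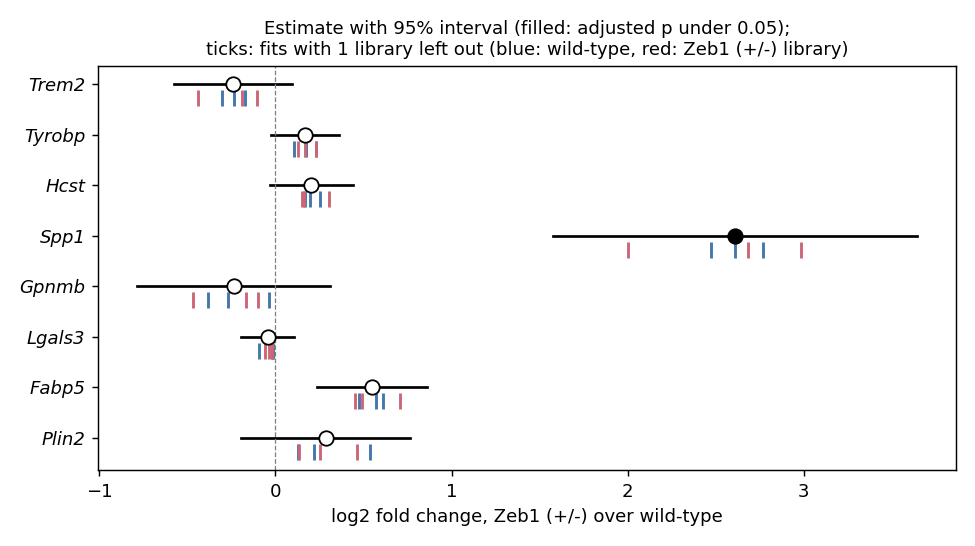
Log2 fold changes of the 8 genes (circles, filled where adjusted p is under 0.05) with 95% confidence intervals (lines) and the values with 1 library left out (ticks, blue for a wild-type and red for a Zeb1 (+/-) library). The Spp1 interval runs from 1.58 to 3.64, that of Fabp5 from 0.24 to 0.86, and the other 6 include 0.

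Levels were compared between genes on a length-scaled basis, in TPM (counts divided by merged exon length and scaled to the same sum in every library). Tyrobp stood first at 4800.4 TPM over the 6 libraries, 12.8 times Plin2, the next at 374 TPM. Plin2 and Lgals3 (261 TPM) overlapped over libraries, and so did Fabp5 (116 TPM) and Hcst (74.6 TPM). Trem2 followed at 28.1 TPM, with all of its libraries below those of Hcst and above those of Spp1. In wild-type cells Spp1 (1.56 to 2.11 TPM) overlapped with Gpnmb (1.12 to 1.83 TPM), whereas all Zeb1 (+/-) libraries of Spp1 (5.16 to 18.1 TPM) were above all those of Gpnmb (0.928 to 1.49 TPM). In wild-type libraries the mean TPM of Tyrobp exceeded that of 99.9% of genes in the table, that of Trem2 92.3%, and that of Gpnmb 76.5%, genes without counts included.

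**Figure D5:**
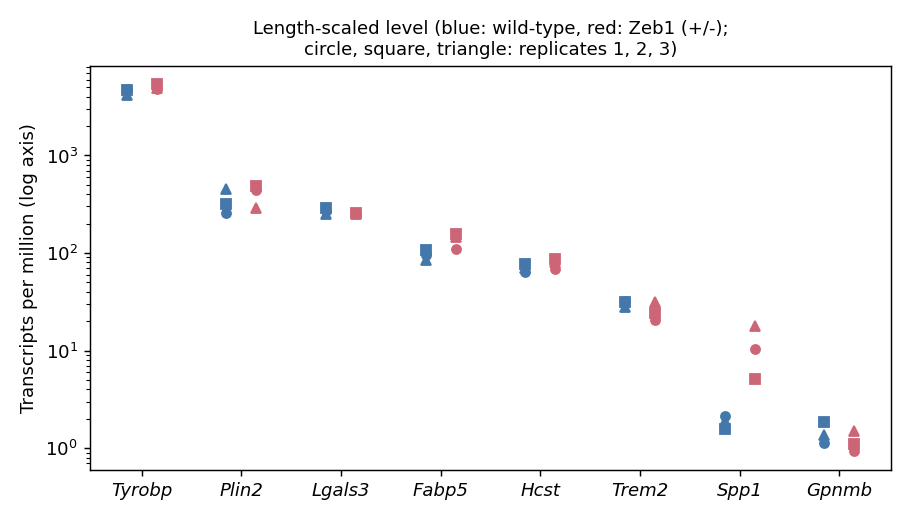
Length-scaled level of the 8 genes in each library, in TPM on a log axis, with wild-type in blue, Zeb1 (+/-) in red, and circles, squares and triangles for replicates 1, 2 and 3. Genes run from Tyrobp (4800.4 TPM) to Gpnmb (1.30 TPM), and Spp1 shows the widest gap between genotypes.

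Spread between libraries also set the genes apart. The coefficient of variation of Spp1 was 17.8% in wild-type and 60.8% in Zeb1 (+/-) libraries, where 99.0% of all tested genes varied less. Plin2 varied by 28.6% and 23.6%, Trem2 by 9.02% and 23.7%, and Lgals3 by 6.23% and 2.56%. The median over all tested genes was 8.46% in wild-type and 7.95% in Zeb1 (+/-). Together the 8 genes made up 0.172% to 0.176% of all counts in wild-type libraries and 0.186% to 0.218% in Zeb1 (+/-) libraries, most of it Tyrobp and Plin2.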

How the data were processed

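The authors deposited a gene table of estimated counts, with a column for each of the 6 libraries. Per the submitters' processing notes the authors used STAR, RSEM and edgeR on GRCm38. Versions, roles, annotation release and strand setting are not given in the sources used here. All values were whole numbers. Per the labels' protocols, the library kit was a stranded TruSeq kit for mRNA. Columns were matched to samples by the identifier in each description.

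Counts were tested with edgeR 4.0.16 in R 4.3.3 after filterByExpr (minimum count 10, total 15) and TMM scaling (factors 0.976 to 1.01), by the quasi-likelihood test of genotype over 12940 genes, with Benjamini-Hochberg adjustment and a threshold of 0.05. The script was tested on simulated data. At these depths 1 CPM stands for 17.9 to 42.3 counts. Exon lengths and positions came from GENCODE M21 (GRCm38), in which 99.3% of identifiers matched without version. The members and lists were chosen with earlier results of these data known. Genes named beyond the 8 are, from each list, those past the threshold or else the one with the smallest p, and the 3 genes most correlated with Spp1 and with Trem2 (mean of at least 1 CPM). Adam10, Adam17, Apoe, Cd44, Syk and the osteopontin family genes are named for their role. Pparg is named as the other gene of its list with an unadjusted p under 0.05. Alternatives were RLE factors, other count filters, the replicate number as a block, DESeq2 1.42.0, robust moderation, terms for structural RNA (split at 20 CPM) and for 13 B cell markers, and each library left out. The labels do not pair replicate numbers across genotypes.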

Additional observations from a re-analysis of the deposited data

How the results depend on the processing

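Spp1 passed with RLE factors, with no low-count filter and with DESeq2, and missed with at least 1 CPM in at least 3 libraries (adjusted p = 0.0509), with robust moderation (0.0964) and with the replicate block (0.0654). All 14 alternatives kept its direction, from 1.75 to 2.98 on the log2 scale, as they did for the direction of Trem2, Gpnmb, Fabp5 and Hcst. Of the 8 genes, 2 passed with no low-count filter and with DESeq2 (Spp1 and Fabp5), and 0 passed with the stricter filter, robust moderation, the replicate block, the structural-RNA term or the B cell covariate. With 1 library left out the number ran from 0 to 1 (Fabp5 in place of Spp1 without Zeb1 (+/-) replicate 1). Tyrobp turned to −0.015 with the B cell covariate, and Lgals3 and Plin2 to 0.064 and −0.12 with the structural-RNA term, none of them past the threshold in any fit. Among the pathway genes 2 passed, against 7 with no low-count filter, 5 with DESeq2, 0 with each of the 3 added terms (replicate block, structural RNA, B cell mean), and 0 to 2 with 1 library left out. Over all genes 76 passed, against 522 with no filter, 329 with DESeq2, 15 with the replicate block, 31 with the structural-RNA term and 4 with the B cell covariate. With 1 library left out this number ran from 5 (without wild-type replicate 2) to 127 (without Zeb1 (+/-) replicate 3). The cause of these shifts was not tested. The replicate numbers are not known to pair the libraries: deviations from the group means of same-numbered libraries correlated at −0.25, −0.03 and −0.17 over genes, and the block changed no call among the other 7 genes. With the longest transcript in place of merged exons the order of levels was the same, with Tyrobp at 4269, Plin2 at 554, Hcst at 97.0, Trem2 at 23.1 and Gpnmb at 1.83 TPM. Counts of 19 to 39 limit the precision of Spp1 in wild-type libraries.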
